A study of Mus musculus with 11 samples.

Results

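A set of 8 genes was selected on the untreated libraries of the deposited count table, because their transcripts were higher in untreated pancreas at 18 months than at 7 weeks, and each was then followed into the pancreas of mice given caerulein. They are Cobl, 1810007D17Rik, Bglap3, Bdh2, Nexmif, Serpine2, Rdh11 and Fxyd1, 8 genes of 54532 in the table, and all 8 passed the filter on low counts that left 14113. The libraries came from whole pancreas of C57BL/6JRj mice, 1 library per mouse by the labels, in 4 groups. These were 3 mice aged 18 months and given caerulein (called aged caerulein here), 3 mice aged 7 weeks and given caerulein (young caerulein), 2 untreated mice aged 18 months (aged untreated, numbered 2 and 3) and 3 untreated mice aged 7 weeks (young untreated). Caerulein was injected into the peritoneum at 125 µg/kg body weight, 4 times an hour apart, and the treated libraries carry the label 5H. The untreated mice are labelled as not treated, and no group injected with vehicle is listed. Effects of caerulein below therefore cannot be told apart from those of the injections. The design text leaves the interval between first injection and sampling unclear, and it is not given here. No transgene or deletion is named for any group, and the study set out to follow the effect of age at the start of pancreatitis.

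Caerulein resembles the hormone cholecystokinin, and in excess it drives acinar cells, the enzyme-making cells that fill most of the pancreas, into premature enzyme activation and injury. The genes have no single pathway in common. Cobl encodes cordon-bleu, which starts new actin filaments and is known for building the microvilli of epithelial brush borders. Bglap3 belongs to the mouse osteocalcin cluster, Bdh2 and Rdh11 encode dehydrogenases, Nexmif is known from neurons, Serpine2 encodes a secreted inhibitor of trypsin-like proteases, and Fxyd1 encodes a small membrane protein that regulates the sodium pump. 1810007D17Rik is annotated as a long intergenic non-coding RNA, and no role is given for it here.

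Levels are read counts relative to TMM-scaled library totals (CPM), and log2 fold changes are given ± SE from 1 edgeR model over all 11 libraries. Total counts were 14223190 to 26537091 per library. The library of young untreated mouse 2 stood apart from the rest. Its summed B cell and plasma cell markers reached 186 CPM against at most 4.78 CPM in the other 10 libraries, its adipocyte markers 344 CPM against at most 29.8 CPM, and its 12 acinar markers 419431 CPM against 688495 and 689833 CPM in the other 2 young untreated mice. Its markers of T cells (86.8 against at most 1.46 CPM), lymph node stroma (47.0 against at most 0.535 CPM), macrophages and neutrophils (270 against at most 67.7 CPM), fibroblasts (461 against at most 297 CPM), smooth muscle (57.2 against at most 31.7 CPM) and endothelium (158 against at most 91.6 CPM) were also the highest. Duct markers were lowest there (126 CPM against at least 246 CPM), and islet markers varied from 145 to 2529 CPM over all libraries. The TMM factor of young untreated mouse 2 was 1.13, against 0.753 and 0.744 for mice 1 and 3. Its acinar gap in CPM includes that scaling. Values without this library are given for calls of the 8 genes that change and for counts that move by over 1.5 times. Acinar markers were high in every library, as the tissue label says, at 302947 to 382875 CPM in aged caerulein, 298230 to 335899 CPM in young caerulein, 610952 to 757616 CPM in aged untreated and 419431 to 689833 CPM in young untreated libraries.

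Aged untreated against young untreated is the comparison that chose the genes, so its values are a description and carry no test. In the model 8 genes passed an adjusted p of 0.05 as higher in aged untreated pancreas, 0.0567% of the 14113 tested, and these were the same 8 (0.0354% were lower). No other gene could then be called higher between the untreated ages, so calls of other genes are not counted there. The log2 fold changes ran from 5.04 ± 0.16 for 1810007D17Rik through 3.91 ± 0.17 for Cobl, 3.19 ± 0.36 for Bglap3, 2.66 ± 0.36 for Bdh2, 2.49 ± 0.30 for Nexmif, 2.07 ± 0.27 for Serpine2 and 1.36 ± 0.18 for Rdh11 down to 1.17 ± 0.18 for Fxyd1. Ranked by p, Fxyd1 was the last gene inside the threshold, with 25.4 to 28.6 CPM in aged untreated and 10.7 to 13.3 CPM in young untreated libraries. Just outside it stood the tubulin gene Tuba4a (1.09 ± 0.18), with 44.9 to 45.5 CPM in aged untreated and 18.5 to 23.9 CPM in young untreated libraries, and the galanin receptor gene Galr1 (3.95 ± 0.66), with 6.55 to 8.99 CPM in aged untreated and 0.320 to 0.843 CPM in young untreated libraries. The number of genes past the threshold as higher moved with single libraries. Caerulein libraries enter the model's estimate of spread, and the number was 6 to 9 without any 1 of them. It was 35 without young untreated mouse 2, and 2 without either of the aged untreated mice.

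**Figure D1:**
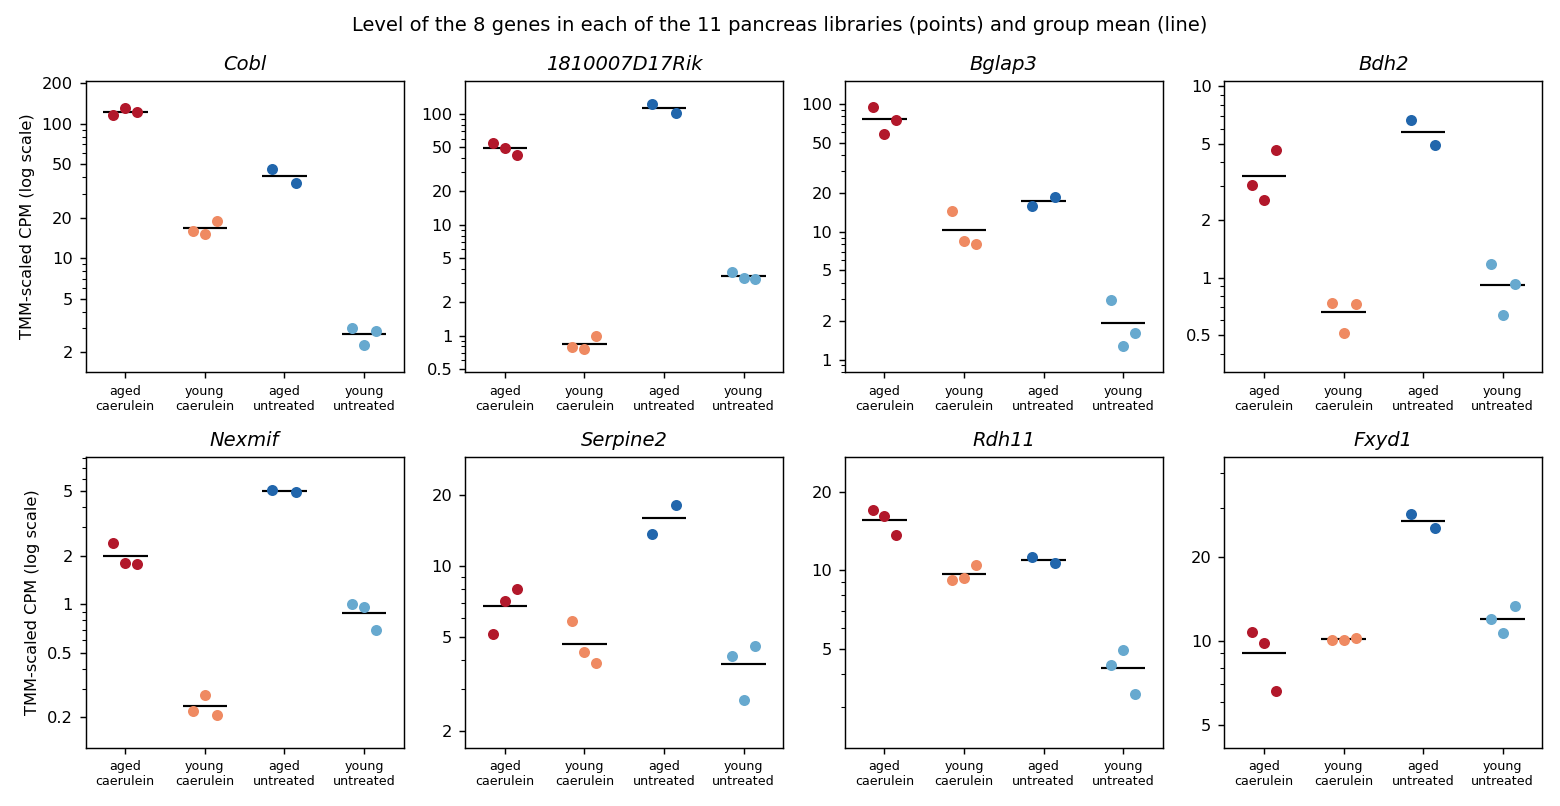
Level of each gene in every library, as TMM-scaled CPM on a log axis that differs between panels. Points are mice (n = 3, 3, 2 and 3 from left to right), lines are group means. The 3 aged caerulein points lie above the 3 young caerulein points for 6 genes and overlap them for Serpine2 and Fxyd1.

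For 5 of the genes the log2 fold change of aged over young pancreas was above 2 after caerulein. Levels in the caerulein libraries did not enter the comparison that chose the genes, though the model's estimate of spread is shared. The 250 bases before the start sites of these 5 genes are shown because of that fold change. All 8 genes matched an entry in the RefSeq promoter table of GRCm38.p6. Bglap3 has 3 promoters there, and Cobl and Rdh11 have 2 each, but only the promoter used for each gene is described. The windows of Serpine2, Rdh11 and Fxyd1 lie inside the annotated genes. Their RefSeq start sites are 79858665, 79191855 and 31054853, against annotated 5′ ends of 79861180, 79192293 and 31057199. Motifs before other start sites of these genes are not given. Sequences run 5′ to 3′ on the strand of the gene and end at the base before the RefSeq start site, with motif matches in capitals.
Cobl, chr11:12464961-12465210, minus strand: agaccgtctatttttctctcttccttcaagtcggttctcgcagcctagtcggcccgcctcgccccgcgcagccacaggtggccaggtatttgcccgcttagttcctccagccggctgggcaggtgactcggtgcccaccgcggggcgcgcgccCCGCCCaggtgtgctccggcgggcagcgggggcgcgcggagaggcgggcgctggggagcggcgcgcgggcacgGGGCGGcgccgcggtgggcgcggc
1810007D17Rik, chr19:58606079-58606328, plus strand: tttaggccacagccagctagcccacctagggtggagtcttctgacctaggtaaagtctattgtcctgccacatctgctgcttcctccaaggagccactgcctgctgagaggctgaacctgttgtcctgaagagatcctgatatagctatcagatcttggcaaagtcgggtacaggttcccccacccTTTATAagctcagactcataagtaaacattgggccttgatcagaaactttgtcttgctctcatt
Bglap3, chr3:88372742-88372991, minus strand: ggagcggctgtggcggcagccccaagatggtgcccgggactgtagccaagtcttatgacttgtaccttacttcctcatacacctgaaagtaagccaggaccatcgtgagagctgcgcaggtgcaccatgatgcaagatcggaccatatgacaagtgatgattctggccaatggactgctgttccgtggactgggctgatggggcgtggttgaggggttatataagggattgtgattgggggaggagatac
Bdh2, chr3:135280971-135281220, plus strand: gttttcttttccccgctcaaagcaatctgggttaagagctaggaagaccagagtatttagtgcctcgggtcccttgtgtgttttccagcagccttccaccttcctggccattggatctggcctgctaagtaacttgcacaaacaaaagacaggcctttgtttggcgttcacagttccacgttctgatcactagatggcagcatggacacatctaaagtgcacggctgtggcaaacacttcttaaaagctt
Nexmif, chrX:104201185-104201434, minus strand: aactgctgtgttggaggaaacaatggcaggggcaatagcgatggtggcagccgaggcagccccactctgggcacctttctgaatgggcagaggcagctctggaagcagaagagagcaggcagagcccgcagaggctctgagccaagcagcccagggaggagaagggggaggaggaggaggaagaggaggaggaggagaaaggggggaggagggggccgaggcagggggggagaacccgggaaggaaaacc

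The letters of 6 motifs were searched on both strands of these windows and of all 32851 in the table. The TATA box, spelled TATAAA, was present in 12.4% of all windows and the GC box, spelled GGGCGG, in 32.7%. The AP-1 motif TGANTCA was present in 6.75%, the cyclic AMP element TGACGTCA in 1.55%, the E-box CACGTG in 6.02% and the RBPJ motif TTCCCAC in 5.42%. The Cobl window held 2 GC boxes that do not overlap, starting 97 and 24 bases before the start site, and that of 1810007D17Rik held 1 TATA box on the opposite strand, starting 64 bases before it. The Bglap3, Bdh2 and Nexmif windows held none of these letters, and neither did those of Rdh11 and Fxyd1, while that of Serpine2 held 6 GC boxes, of which 2 share a base. Cobl's window was rich in G and C at 75.2%, that of Nexmif had 63.6%, Bglap3 54.4%, 1810007D17Rik 49.2% and Bdh2 48.0%, against a median of 52.4% over all windows (quartiles 45.2% and 61.2%). No motif was present in more than 1 of the 5 windows shown.

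Once caerulein had been given, 6 of the 8 genes were higher in aged than in young pancreas (edgeR quasi-likelihood test, Benjamini-Hochberg over 14113 genes, adjusted p below 0.05). The same call was made for 2.46% of all genes tested, 347 genes, and 1.27%, 179 genes, were called lower, so 65.97% of the calls were higher. For the same 6 genes all aged caerulein libraries lay above all young ones, which held for 17.3% of all genes tested. On library totals alone, without TMM, 99 genes were higher and 116 lower, a share of 46.05%, and the median of all genes moved by -0.12 on the log2 scale. Without young untreated mouse 2 in the shared model, 1065 genes were higher and 856 lower, and the same number of the 8, 6, was called. Fitted on the 6 caerulein libraries alone, 6 were called as well. On library totals, with mouse number as a block, or without any 1 of 7 libraries, 5 were called, and Rdh11 was the gene lost. Of these 6, Cobl, 1810007D17Rik, Bglap3, Bdh2 and Nexmif had log2 fold changes of 2.35 to 5.87, and Rdh11 had 0.69. Serpine2 and Fxyd1 did not pass. In bulk tissue, more cells of a type and more RNA per cell cannot be told apart.

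**Figure D2:**
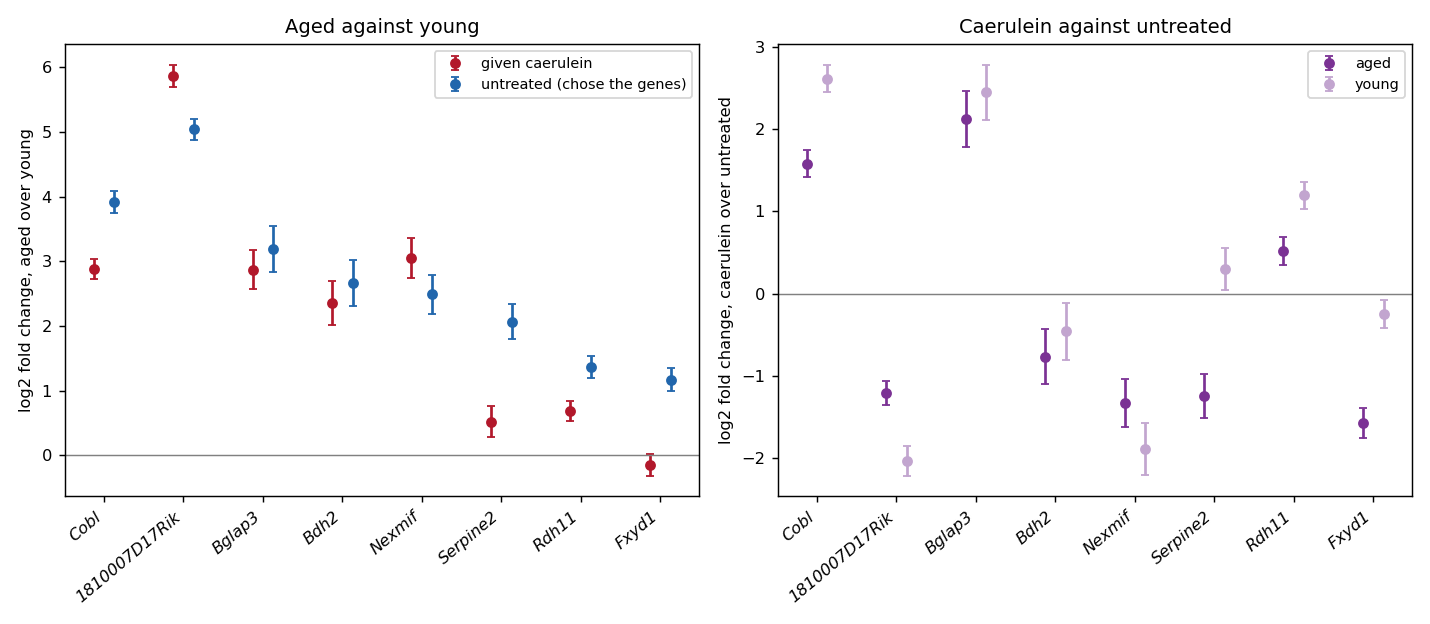
Log2 fold changes of the 8 genes ± SE from the edgeR model, aged over young on the left (given caerulein beside untreated, the comparison that chose the genes) and caerulein over untreated on the right (aged beside young). The age difference after caerulein runs from 5.87 for 1810007D17Rik to -0.15 for Fxyd1, and Serpine2 is the gene whose 2 caerulein responses lie on opposite sides of 0.

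Lymphocyte markers also differed with age, and their part in these results was not tested. The 8 B cell and plasma cell markers summed to 3.33 to 4.78 CPM in aged caerulein, 0.119 to 0.305 CPM in young caerulein and 2.60 to 4.44 CPM in aged untreated libraries, and to 0.112, 186 and 0.115 CPM in the young untreated libraries of mice 1, 2 and 3. The 7 T cell markers summed to 0.649 to 0.777 CPM in aged caerulein, 0.104 to 0.218 CPM in young caerulein, 1.01 to 1.46 CPM in aged untreated and 0.0575 to 86.8 CPM in young untreated libraries. Of the 12 marker lists, 1 acinar marker was lower and 1 duct marker higher in aged than in young caerulein libraries, and no other marker was called in that comparison (edgeR, same adjustment). Only 2 of the 8 B cell and plasma cell markers, 0 of the 7 T cell markers and 1 lymph node stroma marker passed the filter. The rest of these 3 lists could not be called.

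Cobl had 117, 129 and 121 CPM in aged caerulein mice 1 to 3, against 16.03, 15.1 and 18.8 CPM in young caerulein mice. Untreated, it had 46.1 and 35.9 CPM in aged mice 2 and 3, against 3.04, 2.28 and 2.88 CPM in young mice. The 4 groups lay apart, with aged caerulein highest and young untreated lowest, and untreated aged pancreas was above young pancreas given caerulein. Between the caerulein groups the log2 fold change was 2.88 ± 0.15, with an edgeR adjusted p of 4.72e-06 that ranked second among all genes tested. The caerulein response was 1.58 ± 0.16 in aged and 2.61 ± 0.16 in young mice, a difference of -1.03 ± 0.22 that is given without a test because the untreated libraries chose the gene. Cobl is at chr11:12236608-12464960 on the minus strand (mm10, ENSMUSG00000020173). The antisense gene Gm12002, which lies inside it, had 35 reads over all libraries.

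To test caerulein against no treatment apart from the comparison that chose the genes, the 2 responses were combined with weights. These were 0.4 for aged and 0.6 for young mice, the shares of the 2 ages among the 5 untreated libraries. At equal spread, the untreated mean so formed is uncorrelated with the aged minus young difference. Spread was not equal, with a chi-square per gene of 101 and 88.4 between young untreated mouse 2 and mice 1 and 3. Between mice 1 and 3 it was 20.1. The choice of genes also used the model's estimate of spread, so the balanced p-values may not be fully free of it. In this balanced effect 3 of the 8 genes were higher after caerulein (Cobl, Bglap3 and Rdh11), 3 were lower (1810007D17Rik, Nexmif and Fxyd1) and 2 did not pass (Bdh2 and Serpine2). Of all genes tested, 32.4% were called higher and 30.2% lower, so these counts are read only gene by gene. On library totals alone 6419 genes were higher and 1726 lower, 78.81% of the calls against 51.7% with TMM, and the median of all genes moved by 0.53 on the log2 scale. Cobl rose by 2.20 ± 0.12 (edgeR adjusted p = 3.74e-08). Acinar markers were lower in every caerulein library than in any untreated one, and their part in the caerulein effects was not tested.

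The Cobl list held 27 other tested genes that nucleate or elongate actin filaments or bind Cobl. None of the 27 was called between aged and young caerulein by edgeR, 3 had an unadjusted p below 0.05, and DESeq2 called 1. With caerulein (the balanced effect) 14 of the 27 were higher and 1 lower, beside 32.4% higher and 30.2% lower over all genes tested. Their median was 0.54 against -0.03 over all genes. Pacsin2, a membrane-bending partner of Cobl, had 217 CPM in aged caerulein, 239 CPM in young caerulein, 39.9 CPM in aged untreated and 38.9 CPM in young untreated libraries, and rose by 2.55 ± 0.10 (adjusted p = 3.88e-09). The formin Daam1 rose by 2.11 ± 0.10, the formin Diaph1 by 1.53 ± 0.08 and the WAVE complex gene Wasf2 by 1.38 ± 0.10. Cobll1, the paralog of Cobl, had 93.3 CPM in aged caerulein, 66.7 CPM in young caerulein, 25.3 CPM in aged untreated and 24.5 CPM in young untreated libraries. It rose by 1.62 ± 0.15 with caerulein and did not pass between the ages given caerulein (0.48 ± 0.19, adjusted p = 0.198).

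The non-coding RNA 1810007D17Rik showed the widest age difference of the 8. In aged caerulein mice 1 to 3 it had 54.8, 49.3 and 42.9 CPM, against 0.784, 0.751 and 0.988 CPM in young caerulein mice, where the values rest on 18, 19 and 19 reads. Aged untreated mice 2 and 3 had 124 and 102 CPM, against 3.77, 3.32 and 3.22 CPM in young untreated mice. No groups overlapped, and at each age the caerulein libraries lay below the untreated ones. Aged caerulein exceeded young caerulein by 5.87 ± 0.17 (edgeR adjusted p = 2.59e-08, the smallest of all genes tested), and the lowest aged library had 43.4 times the level of the highest young one. Caerulein lowered it by a balanced -1.70 ± 0.12 (adjusted p = 3.83e-07). The response was -1.21 ± 0.14 in aged and -2.03 ± 0.18 in young mice, a difference of 0.83 ± 0.23 given as description.

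This RNA is at chr19:58606329-58629753 on the plus strand (ENSMUSG00000100001), near genes that acinar cells transcribe heavily. Pnlip, the pancreatic lipase gene, lies 40.6 kb away on the same strand and had 48068 CPM in aged caerulein, 52252 CPM in young caerulein, 83137 CPM in aged untreated and 85546 CPM in young untreated libraries. Its log2 fold change between the caerulein groups was -0.12 ± 0.25 (edgeR adjusted p = 0.860). Pnliprp1, a lipase-related gene 99.1 kb away, gave -0.07 ± 0.25. The gene 1810018F18Rik, 69.2 kb away, had 15.5 CPM in aged caerulein and 31.2 CPM in young caerulein libraries and did not pass (adjusted p = 0.180).

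Bglap3 is the member of the osteocalcin cluster that is expressed outside bone in the mouse. It had 94.7, 57.8 and 75.5 CPM in aged caerulein mice 1 to 3, against 14.7, 8.46 and 8.06 CPM in young caerulein mice. Untreated, aged mice 2 and 3 had 16.05 and 18.8 CPM, against 2.92, 1.28 and 1.61 CPM in young mice. Its order of groups was that of Cobl, with a wider spread among mice, and no 2 groups overlapped. The difference between aged and young caerulein was 2.87 ± 0.30 (edgeR adjusted p = 0.000982), and Bglap3 rose by 2.32 ± 0.24 in the balanced caerulein effect (adjusted p = 8.13e-06). The response was 2.12 ± 0.34 in aged and 2.45 ± 0.34 in young mice, with a difference of -0.32 ± 0.46.

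Bglap3 (chr3:88368616-88372743, minus strand, ENSMUSG00000074489) has near copies beside it, so reads can be split between them. Of its 2720 distinct stretches of 50 bases in annotated transcripts, 314 (11.5%) also occur in other genes, most of them in Bglap2. Bglap2 had 0 reads in every library, and Bglap, the gene of osteocalcin itself, averaged 0.0133 CPM in young untreated and 0 in the other 3 groups. In its list 7 other genes were tested, the neighbouring gene Pmf1 and genes of the vitamin K cycle and its substrates. None of the 7 was called between aged and young caerulein by edgeR, with 1 at an unadjusted p below 0.05 and 1 called by DESeq2. Caerulein, in the balanced effect, lowered 4 of the 7, Pmf1 among them, and raised 1 (2 without young untreated mouse 2). Over all genes tested 30.2% were lower and 32.4% higher. Ggcx, the enzyme that carboxylates osteocalcin using vitamin K, had 2.00 CPM in aged caerulein, 1.33 CPM in young caerulein, 4.49 CPM in aged untreated and 4.53 CPM in young untreated libraries. It fell by 1.53 ± 0.24 on the log2 scale (edgeR adjusted p = 0.000168). Pmf1, which neighbours the cluster, changed by -1.83 ± 0.31, Gas6, a vitamin K-dependent ligand, by -0.73 ± 0.13 and Vkorc1l1, a vitamin K reductase, by 0.64 ± 0.08.

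Bdh2 encodes a cytosolic dehydrogenase named for the ketone body 3-hydroxybutyrate. It had 3.05, 2.53 and 4.61 CPM in aged caerulein mice 1 to 3, against 0.741, 0.514 and 0.728 CPM in young caerulein mice, where 17, 13 and 14 reads were counted. Aged untreated mice 2 and 3 had 6.64 and 4.93 CPM, against 1.18, 0.639 and 0.921 CPM in young untreated mice. Both ages lay apart in each treatment, while young caerulein and young untreated libraries overlapped. The age difference after caerulein was 2.35 ± 0.34 (edgeR adjusted p = 0.00391). The balanced caerulein effect was -0.58 ± 0.25 and did not pass (adjusted p = 0.0616). Without young untreated mouse 2 it was -0.77 ± 0.26 and passed (adjusted p = 0.0166), without aged caerulein mouse 3 it was -0.69 ± 0.24 (adjusted p = 0.0291), and on library totals it was -0.00.

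Bdh2 lies at chr3:135281221-135304426 on the plus strand (ENSMUSG00000028167) beside the sodium and proton exchanger gene Slc9b2. Of 12 other genes of ketone body metabolism and transport tested, 1 was called higher and 0 lower in aged than in young caerulein. That gene, the transporter gene Slc16a6, had 50.3 CPM in aged caerulein, 13.1 CPM in young caerulein, 22.02 CPM in aged untreated and 21.98 CPM in young untreated libraries (1.94 ± 0.30, edgeR adjusted p = 0.00637). By the balanced caerulein effect 4 of the 12 were higher and 6 lower, beside 32.4% higher and 30.2% lower over all genes tested. The paralog Bdh1 encodes the mitochondrial 3-hydroxybutyrate dehydrogenase. It had 0.146 CPM in aged caerulein, 0.301 CPM in young caerulein, 1.497 CPM in aged untreated and 2.09 CPM in young untreated libraries. With caerulein Bdh1 changed by -2.99 ± 0.49 (edgeR adjusted p = 0.000250). The thiolase genes Acat1 (-1.84 ± 0.10) and Acat2 (-2.88 ± 0.34), the transferase gene Oxct1 (-2.04 ± 0.11) and the monocarboxylate transporter gene Slc16a7 (-1.53 ± 0.18) were lower with caerulein as well.

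Rdh11 encodes an enzyme of the endoplasmic reticulum that reduces retinal to retinol. In aged caerulein mice 1 to 3 it had 16.99, 16.1 and 13.6 CPM, against 9.19, 9.36 and 10.5 CPM in young caerulein mice. Untreated, aged mice 2 and 3 had 11.2 and 10.6 CPM, against 4.33, 4.96 and 3.34 CPM in young mice. Each age lay apart within each treatment, and untreated aged libraries were just above those of young mice given caerulein. The age difference after caerulein was 0.69 ± 0.15 (edgeR adjusted p = 0.0318). That call was lost on library totals alone (0.56 ± 0.24, adjusted p = 0.330) and when any 1 of 7 libraries was left out, where the adjusted p was 0.0558 to 0.123. These 7 were the 3 young caerulein, the 2 aged untreated and aged caerulein mice 1 and 2. With caerulein Rdh11 rose by a balanced 0.92 ± 0.12 (adjusted p = 3.99e-05). The response was 0.52 ± 0.17 in aged and 1.19 ± 0.16 in young mice, with a difference of -0.68 ± 0.23.

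Rdh11 is at chr12:79174337-79192293 on the minus strand (ENSMUSG00000066441), and 19 other genes of retinoid metabolism and its receptors were tested. None was called between aged and young caerulein by edgeR, 5 had an unadjusted p below 0.05, and DESeq2 called 3. Caerulein raised 9 and lowered 5 of the 19 in the balanced effect, beside 32.4% higher and 30.2% lower over all genes tested. Dhrs3, which also reduces retinal, had 3.05 CPM in aged caerulein, 3.41 CPM in young caerulein, 25.4 CPM in aged untreated and 24.0 CPM in young untreated libraries, and changed by -2.90 ± 0.16 (adjusted p = 4.50e-08), opposite in direction to Rdh11. The dehydrogenase gene Dhrs9 rose by 2.79 ± 0.41, the carotene-cleaving enzyme gene Bco1 by 1.92 ± 0.31 and the receptor gene Rxrb by 0.94 ± 0.10. Among the paralogs, Rdh13 rose by 0.58 ± 0.17 (edgeR adjusted p = 0.01004), while Rdh5 changed by -0.99 ± 0.27 (adjusted p = 0.00809). Rdh10 (0.22 ± 0.24) and Rdh14 (0.09 ± 0.15) did not pass, and Rdh12 was too low to test.

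Nexmif encodes a nuclear protein of neurons that is linked to X-linked intellectual disability in people. It had the lowest level of the 8 per length of transcript, and counted 2.41, 1.80 and 1.78 CPM in aged caerulein mice 1 to 3, against 0.218, 0.277 and 0.208 CPM in young caerulein mice, where 5, 7 and 4 reads were counted. Aged untreated mice 2 and 3 had 5.13 and 4.93 CPM, against 1.01, 0.959 and 0.691 CPM in young untreated mice. No groups overlapped, and untreated libraries were above those given caerulein at each age. Aged exceeded young caerulein by 3.05 ± 0.31 (edgeR adjusted p = 0.000982), and the balanced caerulein effect was -1.66 ± 0.22 (adjusted p = 5.66e-05). The response was -1.33 ± 0.29 in aged and -1.89 ± 0.32 in young mice, with a difference of 0.56 ± 0.42. The 10 Schwann cell and neuron markers overlapped between the ages, summing to 27.4 to 36.3 CPM in aged caerulein, 22.6 to 33.6 CPM in young caerulein, 27.9 to 34.9 CPM in aged untreated and 32.9 to 41.7 CPM in young untreated libraries. Nexmif is at chrX:104077434-104201185 on the minus strand (ENSMUSG00000046449), and the microRNA gene Mir672 that lies in it had 0 reads.

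**Figure D3:**
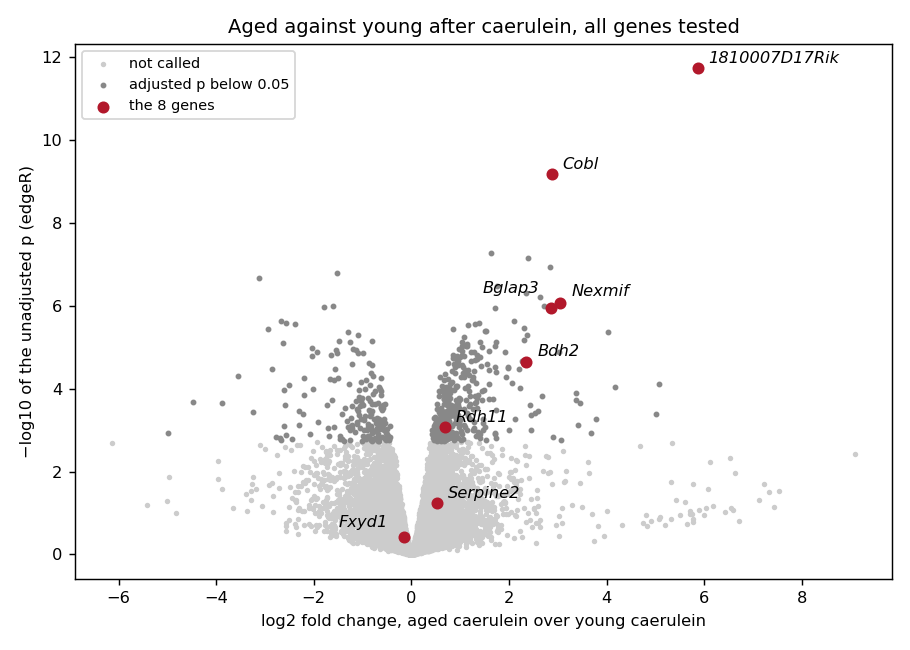
Log2 fold change of aged over young caerulein against −log10 of the unadjusted edgeR p, for the 14113 genes tested. Dark grey points passed an adjusted p of 0.05, and red points are the 8 genes, of which 1810007D17Rik and Cobl have the 2 smallest p, Rdh11 lies near the edge of the called genes, and Serpine2 and Fxyd1 lie below it.

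Serpine2, known as protease nexin-1, inhibits thrombin, plasminogen activators and trypsin. In aged caerulein mice 1 to 3 it had 5.15, 7.11 and 7.99 CPM, against 5.84, 4.31 and 3.90 CPM in young caerulein mice. Untreated, aged mice 2 and 3 had 13.7 and 18.1 CPM, against 4.16, 2.72 and 4.603 CPM in young mice. The aged untreated libraries stood alone at the top, and the ages overlapped after caerulein. The age difference was then 0.52 ± 0.25 (edgeR adjusted p = 0.293), and the balanced caerulein effect was -0.32 ± 0.19 (adjusted p = 0.158). Without young untreated mouse 2 that effect was -0.50 ± 0.17 and passed (adjusted p = 0.0164), and on library totals it was 0.28. The response was -1.24 ± 0.26 in aged and 0.30 ± 0.25 in young mice, a difference of -1.55 ± 0.37 that was not tested.

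Serpine2 is at chr1:79794197-79861180 on the minus strand (ENSMUSG00000026249), and 20 other serpins and genes of plasminogen activation were tested. Of these, 1 was higher and 1 lower in aged than in young caerulein. Serpinb1a, an inhibitor of neutrophil proteases, had 206 CPM in aged caerulein, 76.6 CPM in young caerulein, 90.8 CPM in aged untreated and 73.7 CPM in young untreated libraries (1.43 ± 0.21, edgeR adjusted p = 0.00437). Serpinh1, the collagen chaperone, had 29.9 CPM in aged caerulein, 83.5 CPM in young caerulein, 10.5 CPM in aged untreated and 15.8 CPM in young untreated libraries (-1.48 ± 0.19, adjusted p = 0.00267). In the balanced caerulein effect 7 of the 20 were higher and 5 lower, beside 32.4% higher and 30.2% lower over all genes tested. Serpinb6a rose by 3.16 ± 0.14 and Serpinb8 by 3.09 ± 0.27, both intracellular serpins, and Serpine3 was too low to test.

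Fxyd1, or phospholemman, is known as the regulator of the sodium pump in heart and skeletal muscle. It had 10.7, 9.84 and 6.61 CPM in aged caerulein mice 1 to 3, against 10.06, 10.04 and 10.19 CPM in young caerulein mice. Aged untreated mice 2 and 3 had 28.6 and 25.4 CPM, against 11.97, 10.7 and 13.3 CPM in young untreated mice. The 2 aged untreated libraries were the highest, and after caerulein the ages overlapped, with aged mouse 3 the lowest of all 11. The age difference was then -0.15 ± 0.17 (edgeR adjusted p = 0.704), and leaving out 1 library at a time it was -0.29 to 0.03. In the balanced caerulein effect Fxyd1 fell by 0.77 ± 0.12 on the log2 scale (adjusted p = 0.000226), a call lost on library totals alone (-0.23 ± 0.13, adjusted p = 0.166). The response was -1.57 ± 0.18 in aged and -0.24 ± 0.17 in young mice, a difference of -1.32 ± 0.25. The 7 smooth muscle and pericyte markers summed to 12.6 to 20.8 CPM in aged caerulein, 16.2 to 28.9 CPM in young caerulein, 19.6 to 20.7 CPM in aged untreated and 23.3 to 57.2 CPM in young untreated libraries, and their part in the Fxyd1 result was not tested.

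Fxyd1 is at chr7:31051678-31057199 on the minus strand (ENSMUSG00000036570), within a cluster of its own family. Of 9 other FXYD and sodium pump genes tested, 1 was higher and 1 lower in aged than in young caerulein. Atp1b3, a pump beta subunit, had 47.3 CPM in aged caerulein, 31.5 CPM in young caerulein, 24.5 CPM in aged untreated and 22.5 CPM in young untreated libraries (0.58 ± 0.14, edgeR adjusted p = 0.0438). Fxyd6 had 14.9 CPM in aged caerulein, 22.3 CPM in young caerulein, 33.9 CPM in aged untreated and 29.8 CPM in young untreated libraries (-0.58 ± 0.12, adjusted p = 0.0277). In the balanced caerulein effect 3 of the 9 were higher and 2 lower, beside 32.4% higher and 30.2% lower over all genes tested. Among those called were Fxyd5 (2.55 ± 0.51), Atp1b3 (0.67 ± 0.11) and Fxyd6 (-0.72 ± 0.09). Fxyd3 did not pass (0.35 ± 0.21, adjusted p = 0.159), and Fxyd2, Fxyd4 and Fxyd7 were too low to test.

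Set side by side, the 8 genes fell into patterns that the choice by age did not fix. Cobl, Bglap3 and Rdh11 were higher with age after caerulein and higher with caerulein, the age call of Rdh11 being lost in 9 of 18 alternatives and those of Cobl and Bglap3 in 0. 1810007D17Rik and Nexmif were higher with age after caerulein and lower with caerulein, and Bdh2 was higher with age after caerulein with a caerulein effect that did not pass. For Serpine2 and Fxyd1 the age difference did not pass after caerulein. The aged response minus the young one was negative for Cobl, Bglap3, Bdh2, Rdh11, Serpine2 and Fxyd1 and positive for 1810007D17Rik and Nexmif. Selection on the untreated libraries can by itself lower the aged and raise the young response, so these differences are only described.

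Compared per kilobase of transcript on the deposited FPKM values, the order of the genes changed with the group. In aged caerulein libraries 1810007D17Rik had 64.5 ± 7.72 FPKM, Bglap3 28.2 ± 6.67 FPKM, Cobl 14.7 ± 0.872 FPKM, Rdh11 4.40 ± 0.495 FPKM and Fxyd1 4.05 ± 0.969 FPKM (SD, n = 3), with Rdh11 and Fxyd1 overlapping. Serpine2 (0.797 FPKM) and Bdh2 (0.781 FPKM) also overlapped, and Nexmif was lowest at 0.169 FPKM. In young caerulein libraries the non-coding RNA stood at 1.10 ± 0.172 FPKM, under Fxyd1 at 4.50 ± 0.0515 FPKM, Bglap3 at 3.85 ± 1.37 FPKM, Rdh11 at 2.73 ± 0.211 FPKM and Cobl at 1.99 ± 0.241 FPKM. Fxyd1 and Bglap3 overlapped there. In aged untreated libraries 1810007D17Rik was first at 154 ± 22.5 FPKM and Fxyd1 second at 12.4 ± 1.17 FPKM (n = 2), and in young untreated libraries Fxyd1 was first at 5.50 ± 0.677 FPKM and 1810007D17Rik second at 4.64 ± 0.387 FPKM (n = 3). Nexmif was the lowest in every group.

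Within 100 kb of the 8 gene bodies lay 65 other annotated genes, of which 32 were tested, a window chosen after the values were seen. None of the 32 was called between aged and young caerulein by edgeR or DESeq2, 3 had an unadjusted p below 0.05, and the median log2 fold change was -0.06 against 0.01 over all genes. Slc9b2, 3.27 kb from Bdh2, had the largest of these fold changes and few reads, at 0.837 CPM in aged caerulein, 0.351 CPM in young caerulein, 0.306 CPM in aged untreated and 0.348 CPM in young untreated libraries (1.25 ± 0.71, adjusted p = 0.395). Vti1b, 1.67 kb from Rdh11, gave -0.03 ± 0.14, and Lgi4, 2.14 kb from Fxyd1 on the opposite strand, gave -0.51 ± 0.60. Strand use in the counting is not given in the sources used here, so reads of overlapping genes on opposite strands cannot be told apart.

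**Figure D4:**
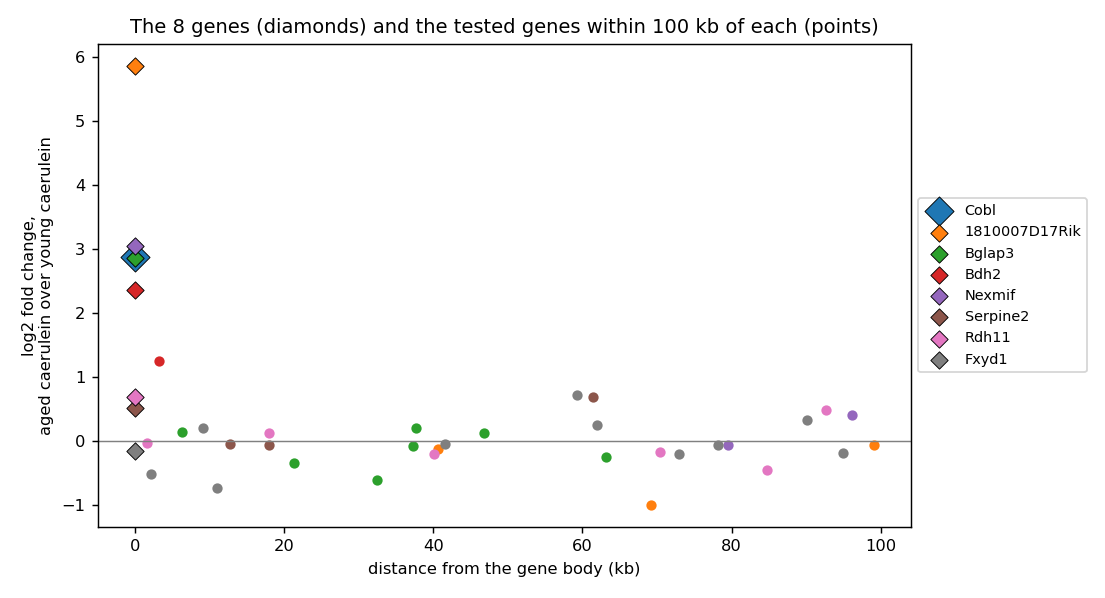
Log2 fold change of aged over young caerulein (vertical axis) for the 8 genes (diamonds, drawn at distance 0) and the 32 tested genes within 100 kb (points, in the colour of the gene they lie near) against distance from the gene body in kb. The points spread around 0 while 5 diamonds lie above 2, with those of Cobl (2.88) and Bglap3 (2.87) drawn over each other.

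Across the 11 libraries, Pearson correlations of log2 CPM describe which genes had the most similar profiles among 7127 or 7128 genes with a mean of at least 5 CPM. The libraries fall into 4 groups and share depth and composition, so the values carry no p. They also include the untreated libraries that chose the genes. Likeness among the chosen genes, or to genes just outside the threshold, therefore includes the differences behind that choice. It was not tested apart from them. Cobl and Bglap3 were closest to each other (r = 0.978), and next to both came Prkar2a, a regulatory subunit of protein kinase A (r = 0.962 with Cobl and 0.958 with Bglap3). Cobl was also the closest to Rdh11 (r = 0.957), followed by the ribosomal gene Rps3 (r = 0.936). The closest to both Nexmif (r = 0.964) and Bdh2 (r = 0.961) was 1810007D17Rik, followed by the zymogen granule gene Sycn for Nexmif (r = 0.941) and Tuba4a for Bdh2 (r = 0.931). For 1810007D17Rik itself, Nexmif and Bdh2 were below the floor of 5 CPM and so not candidates, though their r was higher. Among the candidates, the solute carrier gene Slco3a1 (r = 0.942) and Smad5 (r = 0.918) came first. Serpine2 was closest to Tuba4a (r = 0.885) and Zfp13 (r = 0.860), both just outside the threshold that chose the genes, and Fxyd1 to the oxygen-sensing hydroxylase gene Egln1 (r = 0.956) and to Pm20d1 (r = 0.950).

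**Figure D5:**
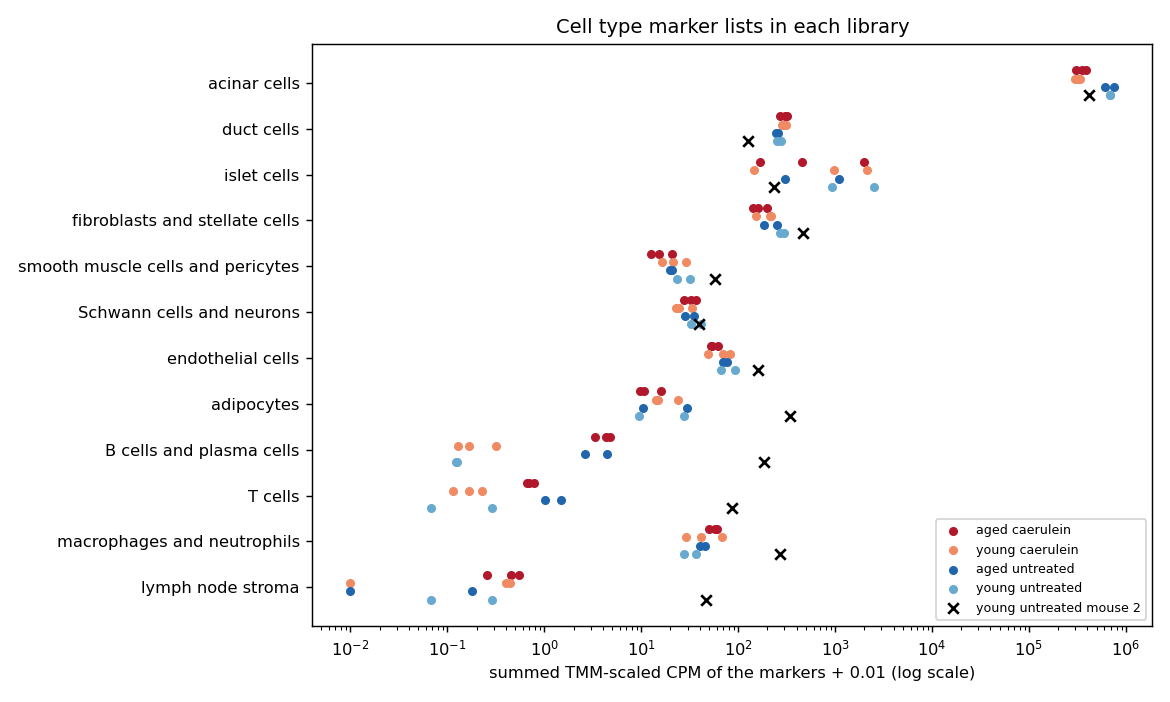
Summed TMM-scaled CPM of 12 cell type marker lists in each library (log axis, 0.01 added). Young untreated mouse 2, drawn as a cross, stands far to the right for B cells, T cells, adipocytes and lymph node stroma, and the 5 aged libraries (2.60 to 4.78 CPM) lie right of the other 5 young ones (0.112 to 0.305 CPM) for B cells.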

How the data were processed

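Whole pancreas RNA was captured by poly(A) and sequenced as 150-base read pairs, per the labels' protocols. Per the submitters' processing notes, HISAT2 2.0.5 aligned the reads to mm10 and featureCounts 1.5.0-p3 counted them. No source used here gives the annotation release, strand setting or multi-mapping rule. Raw read counts for 54532 genes were deposited. The deposited FPKM values imply library totals of 0.696 to 1.33 times the summed counts, scaled by the authors by a rule that no source used here gives, and were used only to compare levels between genes by length. From the deposited comparison tables, log2 fold changes and p-values of the authors' model were read, and 66 columns of per-library values were left out.

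Genes were kept by filterByExpr (14113), scaled by TMM (factors 0.696 to 1.29) and fitted with 4 groups in edgeR 4.0.16 under R 4.3.3, with Benjamini-Hochberg adjustment over all genes and calls at 0.05. DESeq2 1.42.0 was an alternative, with other filters and scalings, a mouse-number block, the caerulein libraries alone and each library left out in turn. SE is the fold change over the square root of F. Total counts were 14223190 to 26537091 per library. Reads carry no molecular identifiers, so they are not independent molecules. No 2 libraries of the same group agreed within sampling noise (chi-square per gene 12.4 to 101).

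The 8 genes, the 6 pathway lists, the 12 marker lists and the tests were chosen with earlier results of these data known. The text names all 8 genes, from each pathway list up to 4 called genes with the smallest p and a mean of at least 1 CPM, listed paralogs, and the 2 genes closest in profile to each of the 8. Some genes that this rule names are not reported here. Promoter windows come from RefSeq (GRCm38.p6), gene positions and shared stretches of 50 bases from GENCODE on GRCm38.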

Additional observations from a re-analysis of the deposited data

Results flagged for a closer look

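Serpine2 was singled out because its caerulein libraries lay on opposite sides of the untreated mean at the 2 ages. It had 5.15, 7.11 and 7.99 CPM in aged caerulein mice, all below the aged untreated mean of 15.9 CPM, and 5.84, 4.31 and 3.90 CPM in young caerulein mice, all above the young untreated mean of 3.83 CPM. The aged response minus the young response was -1.55 ± 0.37 on the log2 scale. The young response alone was 0.30 ± 0.25, and the young caerulein and young untreated libraries overlapped. That the young caerulein libraries all lay above the mean rested on young untreated mouse 2 (2.72 CPM), the library that stood apart. Young untreated mice 1 and 3 had 4.16 and 4.603 CPM, both above young caerulein mouse 3 at 3.90 CPM. The difference between the aged and young responses was not tested, because the untreated libraries that enter it chose the gene.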

How the results depend on the processing

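No called value changed direction under the alternatives run. Of the 8 genes, 5 or 6 were called higher in aged than in young caerulein under all 18 alternatives, Rdh11 being the one lost (also with mouse number as a block, 0.68, edgeR adjusted p = 0.0587). Over all genes the counts of 347 higher and 179 lower depended on the setting. They were 99 and 116 on library totals, 590 and 323 with DESeq2, 971 and 715 with only the caerulein libraries, and 234 and 111 with mouse number as a replicate block, and 307 were lower with no filter on low counts. Leaving out 1 library gave 109 to 1065 higher and 60 to 856 lower, both highest without young untreated mouse 2, while leaving out any caerulein library gave at most 184 and 85, and leaving out aged untreated mouse 2 or 3 gave 102 and 103 lower. In the balanced caerulein effect 1726 genes were lower on library totals, against 4269, and 3 to 5 of the 8 genes were called lower when 1 library was left out (5 without young untreated mouse 2). Bdh2 also passed there with a stricter filter (-0.61, adjusted p = 0.0479) and with DESeq2 size factors (-0.63, adjusted p = 0.0446, both edgeR). The causes were not tested.

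Mouse numbers did not pair aged with young caerulein libraries (correlations of deviations -0.21, 0.10 and -0.05). In young mice the 3 same-numbered caerulein and untreated pairs had 0.11, 0.15 and 0.11, although untreated mouse 1 was closest to caerulein mouse 3 (0.15). With the block, 3 of the 8 genes were called higher and 3 lower in the balanced caerulein effect. Depth limits Nexmif (16 reads in all in young caerulein), Bdh2 (44 reads) and 1810007D17Rik (56 reads). The aged untreated group has 2 mice, and leaving out 1 assumes that the other varies like the rest. Without young untreated mouse 2, an alternative chosen after seeing the data, the pathway lists had 1 to 2 genes higher and 0 to 2 lower in aged than in young caerulein.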

Other observations

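The authors' deposited tables give fold changes close to those printed above, from their own model. The authors' deposited table of aged against young caerulein lists log2 fold changes of 5.86 for 1810007D17Rik, 2.86 for Cobl, 2.84 for Bglap3, 3.06 for Nexmif, 2.34 for Bdh2 and 0.67 for Rdh11. The same authors' deposited table lists 0.50 for Serpine2 with an adjusted p of 0.223 and -0.17 for Fxyd1 with an adjusted p of 0.693.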
